A study of Mus musculus with 4 samples.

Results

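The genes described here are 10 mouse genes of elastic fibres and microfibrils, taken by symbol from a table of 55487 Ensembl gene IDs: Eln, Fbn1, Fbn2, Fbln1, Fbln2, Fbln5, Efemp1, Efemp2, Mfap5 and Emilin1. All 10 were found in the table, and all 10 held enough counts to be tested. RNA was sequenced from skeletal stem cells of wild-type mice, in 2 libraries from ovariectomized mice and 2 libraries from sham-operated mice, all labelled 8 weeks. The titles of all the libraries, of both groups, also carry the word control, which they do not explain. Removal of the ovaries takes away the main source of oestrogen, and the title of the series sets the comparison in the progression of osteoporosis. Cells were freed from the metaphysis of long bones with collagenase and sorted freshly by flow cytometry. The labels do not say whether 8 weeks is an age or a time after surgery, nor whether a library is from 1 animal or a pool, so the p-values measure only the spread between these libraries, which may be technical.

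Elastic fibres give tissues recoil. Their core is cross-linked elastin, the product of Eln, laid down on microfibrils whose backbone is made of the fibrillins Fbn1 and Fbn2. Fibulins bind elastin, fibrillins and basement membranes, MAGP proteins and EMILINs decorate microfibrils or the face between microfibril and elastin, and lysyl oxidases cross-link the elastin. Microfibrils also occur without elastin, as in cartilage and bone matrix, where they hold latent TGF-beta and BMPs, and fibrillin mutations cause skeletal disease.

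The libraries held 18291436 to 23721078 counts, and 1 count was worth 0.0423 to 0.0519 CPM (counts relative to the library total) after scaling of the libraries by TMM. Of 17120 genes tested, edgeR called 510 higher and 206 lower after ovariectomy at an adjusted p under 0.05 (718 and 156 with library totals as the only scaling, 443 and 355 with an offset for GC content and length). Of the sort antigens, Itgav (CD51) was at 69.0 and 72.0 CPM in ovariectomy and 70.4 and 67.3 CPM in sham libraries, Cd200 at 173 and 155 CPM in ovariectomy and 237 and 305 CPM in sham libraries (edgeR adjusted p = 0.0462), and Thy1 (CD90) had 3 to 5 counts per library. Eng (CD105) was at 75.2 and 83.1 CPM in ovariectomy and 21.6 and 52.1 CPM in sham libraries (edgeR adjusted p = 0.150), and Enpep (6C3) at 4.40 and 3.64 CPM in ovariectomy and 1.52 and 1.91 CPM in sham libraries (edgeR adjusted p = 0.22). For the endothelial receptor gene Tek (Tie2) the values were 7.53 and 9.76 CPM in ovariectomy and 0.223 and 5.52 CPM in sham libraries, and for the leukocyte gene Ptprc (CD45) 3.55 and 6.44 CPM in ovariectomy and 9.55 and 5.25 CPM in sham libraries. The sham libraries differed more from each other than the ovariectomy libraries did, with a chi-square divided by its degrees of freedom of 15.5 in the ovariectomy pair and 32.5 in the sham pair.

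Within the elastic fibre and microfibril genes, 3 rose and 1 fell after ovariectomy. The microfibril protein gene Mfap5 was 6.87-fold higher, Fbln5 4.81-fold higher and Fbln1 2.35-fold higher after ovariectomy, whereas Emilin1, the highest of the 10 in CPM, was 1.65-fold lower. The other 6 genes did not pass the test. Thus 3 of 10 genes were called higher, where 2.98% of all genes tested were, and 1 was called lower, where 1.20% of all genes were (4 in either direction, against 4.18% of all genes). Both ovariectomy libraries lay above both sham libraries for 7 of the 10 (25.5% of all genes) and below them for 2 (23.9% of all genes), so that the groups stood apart for 9 (49.3% of all genes). Fold changes were above 0 for 8 of the 10, where 48.7% of all genes had one above 0. The median log2 fold change was 1.11 over the 10 genes and -0.02 over all genes tested. Summed over the 10 genes, however, the level was 942 and 994 CPM in ovariectomy libraries and 913 and 915 CPM in sham libraries. The 10 genes were chosen with earlier results of these data known, so the shares of all genes beside them are context and no test. In bulk RNA, a larger share of cells of a type and more RNA per cell cannot be told apart.

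**Figure D1:**
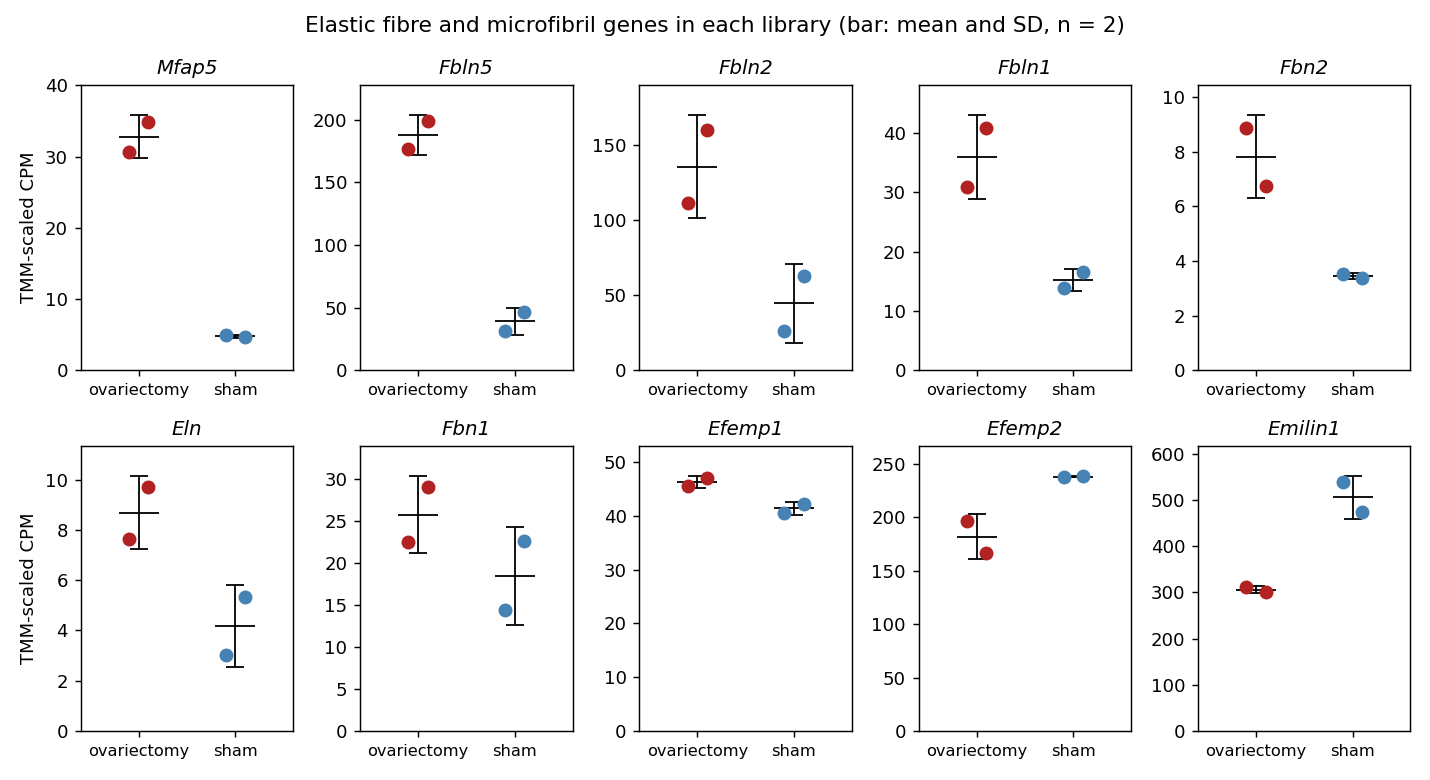
TMM-scaled CPM (vertical axes, from 0, each gene on its own scale) of the 10 genes in each ovariectomy library (red points) and sham library (blue points), with bars for the mean and SD over 2 libraries. The groups stand apart for every gene but Fbn1, and Emilin1 and Efemp2 are the genes whose ovariectomy points lie below the sham points.

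These calls, like all others in the table, were lost when the ovariectomy group was cut to 1 library. The same 4 genes stayed called when the sham group was cut instead. Without ovariectomy 1 and without ovariectomy 2, the log2 fold change was 2.89 and 2.70 for Mfap5 and 2.37 and 2.19 for Fbln5. It was 1.44 and 1.03 for Fbln1, and -0.73 and -0.69 for Emilin1. When either ovariectomy library was left out, edgeR called 0 genes in the whole table, and so 0 of the 10 (6 of them had an unadjusted p under 0.05 in either case, as had 1788 genes of the table without ovariectomy 1 and 1618 without ovariectomy 2), and the adjusted p of the 4 genes called above lay between 0.162 and 0.386, with the signs kept. The partner genes named further on were not called either when 1 ovariectomy library was left out.

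Mfap5 encodes MAGP-2, a small glycoprotein that binds fibrillin. The gene (chromosome 6, 122505845 to 122529290, plus strand, GRCm38) was at 30.7 and 34.9 CPM in ovariectomy libraries, against 4.91 and 4.63 CPM in sham libraries. Both ovariectomy libraries were far above both sham libraries, and the replicates of each group lay close together. Its log2 fold change was 2.78 ± 0.21 (SE), with an edgeR adjusted p of 0.00185, and it stood at place 25 by p among all genes tested. Among the genes tested, ranked by CPM per kilobase of exon, Mfap5 stood at percentiles 78.7 and 81.0 in ovariectomy libraries and 43.0 and 41.3 in sham libraries.

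The paralogue Mfap2 (MAGP-1), which also binds fibrillin, was at 24.6 ± 4.71 CPM in ovariectomy and 23.3 ± 1.64 CPM in sham cells (SD, n = 2 each), with overlapping groups and a log2 fold change of 0.08 (95% interval -0.40 to 0.56, edgeR adjusted p = 0.913). Of the summed level of both MAGP genes per kilobase of exon, Mfap5 made up 27.0% and 35.7% in ovariectomy libraries and 6.33% and 6.58% in sham libraries. A share of this kind is taken within a library and does not move with library scaling.

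Among the fibulins, Fbln5 had the largest fold change. Fibulin-5 binds elastin and cell-surface integrins, and mice without it form disorganized elastic fibres. Fbln5 (chromosome 12, 101746565 to 101819055, minus strand) was at 176 and 199 CPM in ovariectomy libraries and at 31.4 and 46.5 CPM in sham libraries. The lower ovariectomy library was thus well above the higher sham library. The log2 fold change was 2.27 ± 0.20 (SE, edgeR adjusted p = 0.0034, place 37 by p).

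Fbln1, a fibulin of basement membranes and elastic fibres (chromosome 15, 85205949 to 85286535, plus strand), was at 30.9 and 40.9 CPM in ovariectomy libraries and 14.0 and 16.6 CPM in sham libraries. The groups did not overlap, and the spread was wider in the ovariectomy pair. Its log2 fold change was 1.23 ± 0.21 (SE, edgeR adjusted p = 0.0230).

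Fbln2, the other large fibulin (chromosome 6, 91212455 to 91272540, plus strand), was at 111 and 159 CPM in ovariectomy libraries and 25.9 and 62.9 CPM in sham libraries. The groups stood apart, but sham 2 was 2.43 times sham 1, the widest gap between replicates among the 10 genes. With a log2 fold change of 1.61 ± 0.38 (SE) Fbln2 did not pass (edgeR adjusted p = 0.0682). It passed in 6 of 9 other settings that kept all 4 libraries, and also without sham 1 (log2 fold change 1.11, edgeR adjusted p = 0.00154) and without sham 2 (2.40, 5.61e-06).

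Efemp2 and Efemp1 encode fibulin-4 and fibulin-3. Efemp2, which is required for elastic fibre assembly and brings lysyl oxidase to elastin, was at 197 and 167 CPM in ovariectomy libraries and 238 and 238 CPM in sham libraries. Both ovariectomy libraries were lower. Its log2 fold change, -0.39 ± 0.13 (SE), missed the threshold with edgeR (adjusted p = 0.154) and passed with the DESeq2 test (adjusted p = 0.0448). Efemp1 was at 45.5 and 47.1 CPM in ovariectomy libraries and 40.5 and 42.2 CPM in sham libraries. Its groups stood apart by a narrow gap, and the log2 fold change of 0.16 had a 95% interval of -0.17 to 0.49 (edgeR adjusted p = 0.638). Differences between the fold changes of these fibulins were not tested.

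The balance within the 5 fibulins of the set can be read inside each library. Fbln7, a partner gene outside the set, is not in these shares and was higher per kilobase than each of them. It was at 173 and 165 CPM per kilobase in ovariectomy libraries and 177 and 145 in sham libraries (log2 fold change 0.07, edgeR adjusted p = 0.845). Of the summed CPM per kilobase of Fbln1, Fbln2, Fbln5, Efemp1 and Efemp2, the share of Efemp2 was 41.8% and 33.8% in ovariectomy libraries and 66.5% and 60.5% in sham libraries. Fbln5 took 20.5% and 22.1% in ovariectomy libraries and 4.80% and 6.47% in sham libraries. For Fbln2 the shares were 14.0% and 19.2% in ovariectomy libraries and 4.30% and 9.49% in sham libraries.

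Emilin1 encodes a glycoprotein that sits between elastin and microfibrils, binds integrins and restrains the processing of pro-TGF-beta. The gene (chromosome 5, 30913402 to 30921277, plus strand) was at 311 and 301 CPM in ovariectomy libraries and 538 and 473 CPM in sham libraries. Both ovariectomy libraries were below both sham libraries, by more than the gap within either pair. The log2 fold change was -0.72 ± 0.12 (SE, edgeR adjusted p = 0.0169).

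The related gene Emilin2, a partner gene outside the 10, was at 134 and 142 CPM in ovariectomy libraries and 4.82 and 9.75 CPM in sham libraries (log2 fold change 4.25, SE 0.30, edgeR adjusted p = 0.00126; 4.85 without sham 2). Emilin1 therefore made up 72.1% and 70.2% of the summed per-kilobase level of the pair in ovariectomy libraries and 99.2% and 98.2% in sham libraries, a ratio chosen after the values were seen.

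**Figure D2:**
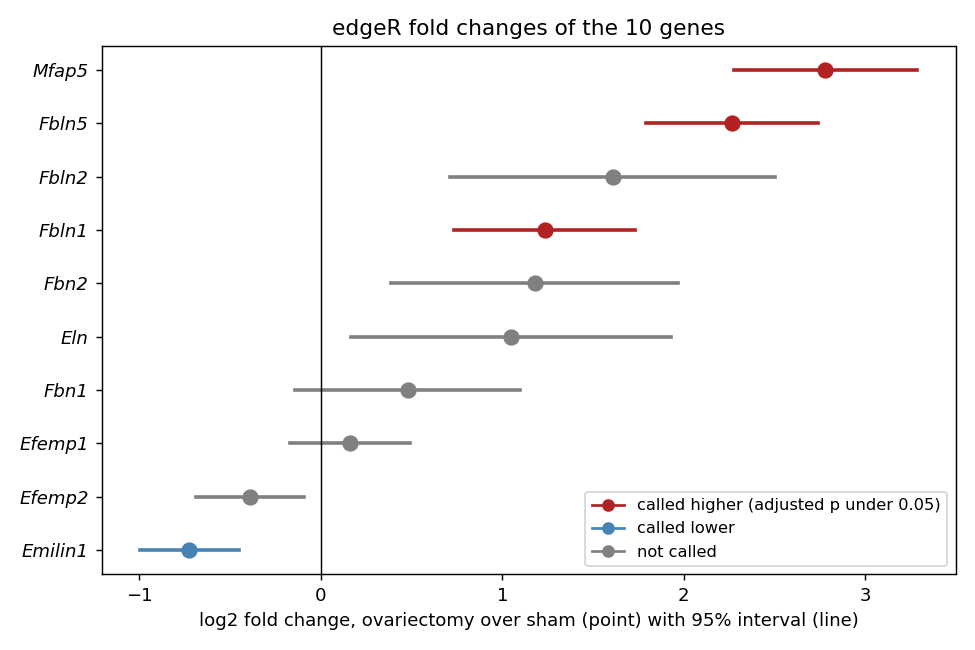
Log2 fold change of each of the 10 genes, ovariectomy over sham (horizontal axis, points), with 95% intervals from the edgeR fit (lines). Mfap5, Fbln5 and Fbln1 (red) were called higher and Emilin1 (blue) lower, and the intervals of Fbn1 and Efemp1 include 0.

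Elastin itself and the fibrillins did not pass, and Eln and Fbn2 were low. Eln (chromosome 5, 134702593 to 134747323, minus strand) was at 7.65 and 9.71 CPM in ovariectomy libraries and 3.03 and 5.34 CPM in sham libraries, from 68 to 187 counts. The groups did not overlap, and sham 2 was 1.76 times sham 1. The log2 fold change of Eln was 1.05 with a 95% interval of 0.17 to 1.93 (edgeR adjusted p = 0.191), and it was 0.70 without sham 1 (edgeR adjusted p = 0.318) and 1.53 without sham 2, where it passed (edgeR adjusted p = 0.0257).

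Fbn1, the main fibrillin of adult tissues (chromosome 2, 125300594 to 125507993, minus strand), was at 22.5 and 29.0 CPM in ovariectomy libraries and 14.4 and 22.6 CPM in sham libraries. It was the gene of the 10 whose groups overlapped, with ovariectomy 1 just under sham 2. The log2 fold change was 0.48 with a 95% interval of -0.14 to 1.10 (edgeR adjusted p = 0.408). The annotated gene Gm9913 on the opposite strand covers 20.1% of the exon length of Fbn1, and the strand setting of the counting is not given. Gm9913 itself had 0 counts in the ovariectomy libraries and 0 and 1 in the sham libraries.

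Fbn2, a fibrillin known mostly from developing tissues, was at 8.88 and 6.75 CPM in ovariectomy libraries and 3.52 and 3.38 CPM in sham libraries. The sham pair lay close together and below both ovariectomy libraries. Its log2 fold change of 1.18 had a 95% interval of 0.39 to 1.97 and did not pass (edgeR adjusted p = 0.112). Fbn2 made up 26.6% and 17.6% of the per-kilobase level of both fibrillins in ovariectomy libraries and 18.4% and 12.1% in sham libraries, and these shares overlapped between the groups.

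Levels can be set against each other only per length. In CPM per kilobase of exon the order in ovariectomy cells was Emilin1 (62.0 ± 1.44, SD), Efemp2 (48.0 ± 5.60), Fbln5 (27.1 ± 2.30), Efemp1 (22.7 ± 0.528), Fbln2 (21.2 ± 5.34), Mfap5 (9.13 ± 0.837), Fbln1 (8.23 ± 1.62), Fbn1 (2.12 ± 0.376), Eln (1.07 ± 0.180) and Fbn2 (0.591 ± 0.114), each with n = 2. Neighbours whose libraries overlapped in that order were Efemp1 with Fbln2 and Mfap5 with Fbln1. In sham cells the order was Emilin1 (102 ± 9.28, SD), Efemp2 (62.9 ± 0.0942), Efemp1 (20.3 ± 0.577), Fbln2 (6.97 ± 4.11), Fbln5 (5.63 ± 1.55), Fbln1 (3.49 ± 0.421), Fbn1 (1.52 ± 0.479), Mfap5 (1.33 ± 0.0544), Eln (0.517 ± 0.202) and Fbn2 (0.261 ± 0.00749). There, Fbln2 overlapped with Fbln5, and Fbn1 with Mfap5. Eln and Fbn2 were the lowest of the 10 in every library. Among all genes tested Eln stood at percentiles 35.7 and 39.5 in ovariectomy libraries and 20.1 and 29.4 in sham libraries, while Emilin1 stood at 96.8 and 96.9 in ovariectomy libraries and 98.3 and 98.1 in sham libraries.

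Taken as a whole, the 10 genes summed to 199 and 205 CPM per kilobase in ovariectomy libraries and 207 and 204 in sham libraries. Emilin1 and Efemp2 gave the largest shares in every library. Emilin1 gave 31.6% and 29.7% of it in ovariectomy libraries and 52.7% and 47.0% in sham libraries. The share of Fbln5 was 12.8% and 14.0% in ovariectomy libraries and 2.20% and 3.30% in sham libraries, and that of Mfap5 was 4.28% and 4.74% in ovariectomy libraries and 0.662% and 0.633% in sham libraries. Eln gave under 1% in every library.

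**Figure D3:**
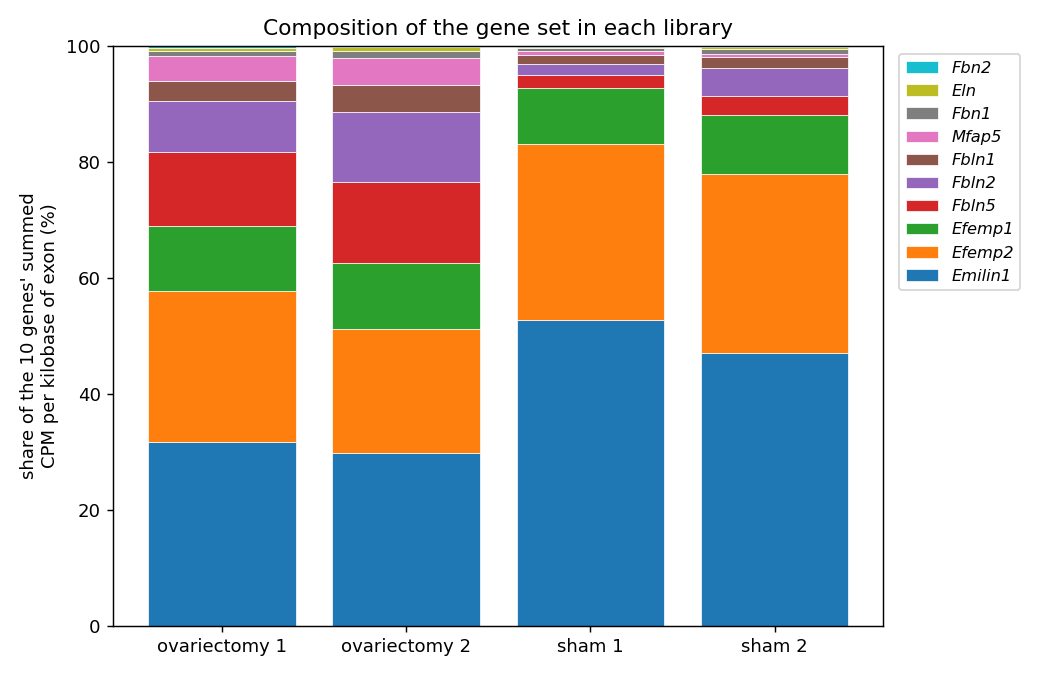
Share of each gene in the summed CPM per kilobase of exon of the 10 genes (vertical axis, percent, stacked to 100) in each library. The blue Emilin1 segment covers 31.6% and 29.7% in the ovariectomy libraries and 52.7% and 47.0% in the sham libraries, and the Fbln5, Fbln2 and Mfap5 segments are wider in the ovariectomy libraries.

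The promoters of 3 of the 4 called genes are shown because the promoter table holds them and because Fbln5 and Fbln1 rose while Emilin1 fell. Each runs from 250 bases before to 50 bases after a RefSeq start (GRCm38.p6), 5′ to 3′ on the gene's strand, and where a gene had several starts the first whose bases lie in a GENCODE transcript was taken. The Fbln5 and Emilin1 windows lie wholly inside the annotated span of their genes, downstream of its start. The Fbln1 window begins before the start of its gene. Capitals mark CAGACA or its reverse complement, a short motif of the kind that SMAD proteins bind.
Fbln5, chr12:101818435-101818734, minus strand: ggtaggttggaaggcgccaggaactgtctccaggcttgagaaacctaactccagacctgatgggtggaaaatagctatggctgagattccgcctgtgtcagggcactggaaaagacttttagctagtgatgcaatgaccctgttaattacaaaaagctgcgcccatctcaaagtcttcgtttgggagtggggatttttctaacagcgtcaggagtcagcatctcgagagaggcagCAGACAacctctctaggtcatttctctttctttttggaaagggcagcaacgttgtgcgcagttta
Fbln1, chr15:85205699-85205998, plus strand: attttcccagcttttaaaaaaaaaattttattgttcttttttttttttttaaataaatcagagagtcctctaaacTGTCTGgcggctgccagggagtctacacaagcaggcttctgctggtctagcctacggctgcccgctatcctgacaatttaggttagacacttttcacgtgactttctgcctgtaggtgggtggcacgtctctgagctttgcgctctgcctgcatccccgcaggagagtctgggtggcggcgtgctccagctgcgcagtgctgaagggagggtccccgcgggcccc
Emilin1, chr5:30913536-30913835, plus strand: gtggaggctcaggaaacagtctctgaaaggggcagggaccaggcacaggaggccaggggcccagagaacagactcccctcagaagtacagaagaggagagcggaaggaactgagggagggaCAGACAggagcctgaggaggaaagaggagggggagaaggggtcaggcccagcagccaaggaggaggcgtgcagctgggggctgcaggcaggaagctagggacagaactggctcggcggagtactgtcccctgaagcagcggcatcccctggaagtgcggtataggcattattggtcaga

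Each of these 3 windows held 1 match to CAGACA, as did 21% of all 32851 promoter windows of the table. Both the genes that rose and the gene that fell thus held it, and the other Fbln5 window of the table did not. For the set, any window on chromosome 18, where Fbn2 lies, was left out. The 7 genes of the set with other windows in the table had 11. Of these 11 windows, 4 held CAGACA (in 3 genes) and 8 held GGGCGG (in 6 genes), a motif of Sp1. Of all windows, 35.7% held GGGCGG. Windows of 1 gene can overlap. The AP-1 motif TGACTCA, which 5.2% of all windows held, was searched on both strands and occurred in 0 of the 11 windows. The TATA box letters TATAAA, held by 13.6% of all windows, were likewise found in 0 of the 11. For the TEAD motif GGAATG, at 14.7% of all windows, the count was also 0. The longer SMAD motif GTCTAGAC had 0 matches in the 11 windows and was held by 0.213% of all windows. A match of letters shows no binding, and no match holds only for these windows.

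Partner genes of the pathway were read from lists of 46 genes that work with elastic fibres and microfibrils. These lists were also chosen with earlier results of these data known. Of 42 tested, 11 were higher and 2 lower, where 2.98% of all genes tested were higher and 1.20% lower, with a median log2 fold change of 0.39 against -0.02 over all genes tested.

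Of 7 tested microfibril-associated and related glycoproteins, 3 were higher and 0 lower. Besides Emilin2, these were Mfap4, which binds elastin and microfibrils, at 6.38 and 7.69 CPM in ovariectomy libraries and 1.38 and 2.05 CPM in sham libraries (edgeR adjusted p = 0.0398), and Vwa1, a protein of the matrix around cartilage cells, at 108 and 121 CPM in ovariectomy libraries and 54.5 and 68.7 CPM in sham libraries (edgeR adjusted p = 0.0242). Other annotated genes share 25.2% of the exon length of Vwa1.

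Latent TGF-beta binding proteins attach to fibrillin, and some of the family store latent TGF-beta. All 4 genes of the family had fold changes above 0, and 2 passed. Ltbp4, which also binds fibulin-5 and fibulin-4 and guides elastin assembly, was at 163 and 188 CPM in ovariectomy libraries and 34.4 and 59.3 CPM in sham libraries (log2 fold change 1.90, SE 0.25, edgeR adjusted p = 0.00838). Ltbp1 was at 84.2 and 86.1 CPM in ovariectomy libraries and 36.3 and 49.8 CPM in sham libraries (log2 fold change 0.98, edgeR adjusted p = 0.0258).

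Of 5 lysyl oxidases, 1 was higher and 0 lower. Loxl1, the family member that fibulin-5 tethers to elastic fibres, rose to 157 and 167 CPM in ovariectomy libraries, against 58.5 and 68.0 CPM in sham libraries (log2 fold change 1.36, SE 0.14, edgeR adjusted p = 0.00439). The other 4 members had log2 fold changes between -0.48 and -0.04, and none of those 4 passed.

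Among 8 ADAMTS and ADAMTS-like genes, Adamtsl4, which binds fibrillin-1, was 3.10-fold higher (edgeR adjusted p = 0.0256). Thsd4 (ADAMTSL6), which promotes fibrillin-1 microfibrils, was 2.44-fold lower, at 20.3 and 30.9 CPM in ovariectomy libraries and 64.7 and 60.2 CPM in sham libraries (edgeR adjusted p = 0.0199).

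Of 9 tested enzymes that cleave elastin, 3 were higher and 1 lower. Ctsk and Ctsl, lysosomal cysteine proteases, were 2.03-fold and 2.10-fold higher (edgeR adjusted p = 0.00537 and 0.0164), and 26.8% of the exon length of Ctsl is shared with other genes. Elane, the neutrophil elastase, was at 10.7 and 12.0 CPM in ovariectomy libraries and 2.01 and 0.579 CPM in sham libraries (edgeR adjusted p = 0.0237). The log2 fold change of Elane was 3.13, with 4.28 without sham 1 and 2.51 without sham 2. Mmp9, a gelatinase of osteoclasts and leukocytes, was at 17.6 and 23.8 CPM in ovariectomy libraries and 47.6 and 106 CPM in sham libraries (log2 fold change -1.90, SE 0.36; edgeR adjusted p = 0.0341). Without sham 2 the log2 fold change of Mmp9 was -1.19. Mmp7 had 0 counts in every library.

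Of 9 tested integrin subunits that serve as receptors of fibrillins, fibulins or EMILINs, 1 passed. Itgb8, part of an integrin that activates latent TGF-beta, was at 12.4 and 12.9 CPM in ovariectomy libraries and 0.268 and 1.51 CPM in sham libraries (log2 fold change 3.82, SE 0.64, edgeR adjusted p = 0.0207). Its sham level rests on 6 and 34 counts, and the log2 fold change of Itgb8 was 3.06 without sham 1 and 5.55 without sham 2.

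**Figure D4:**
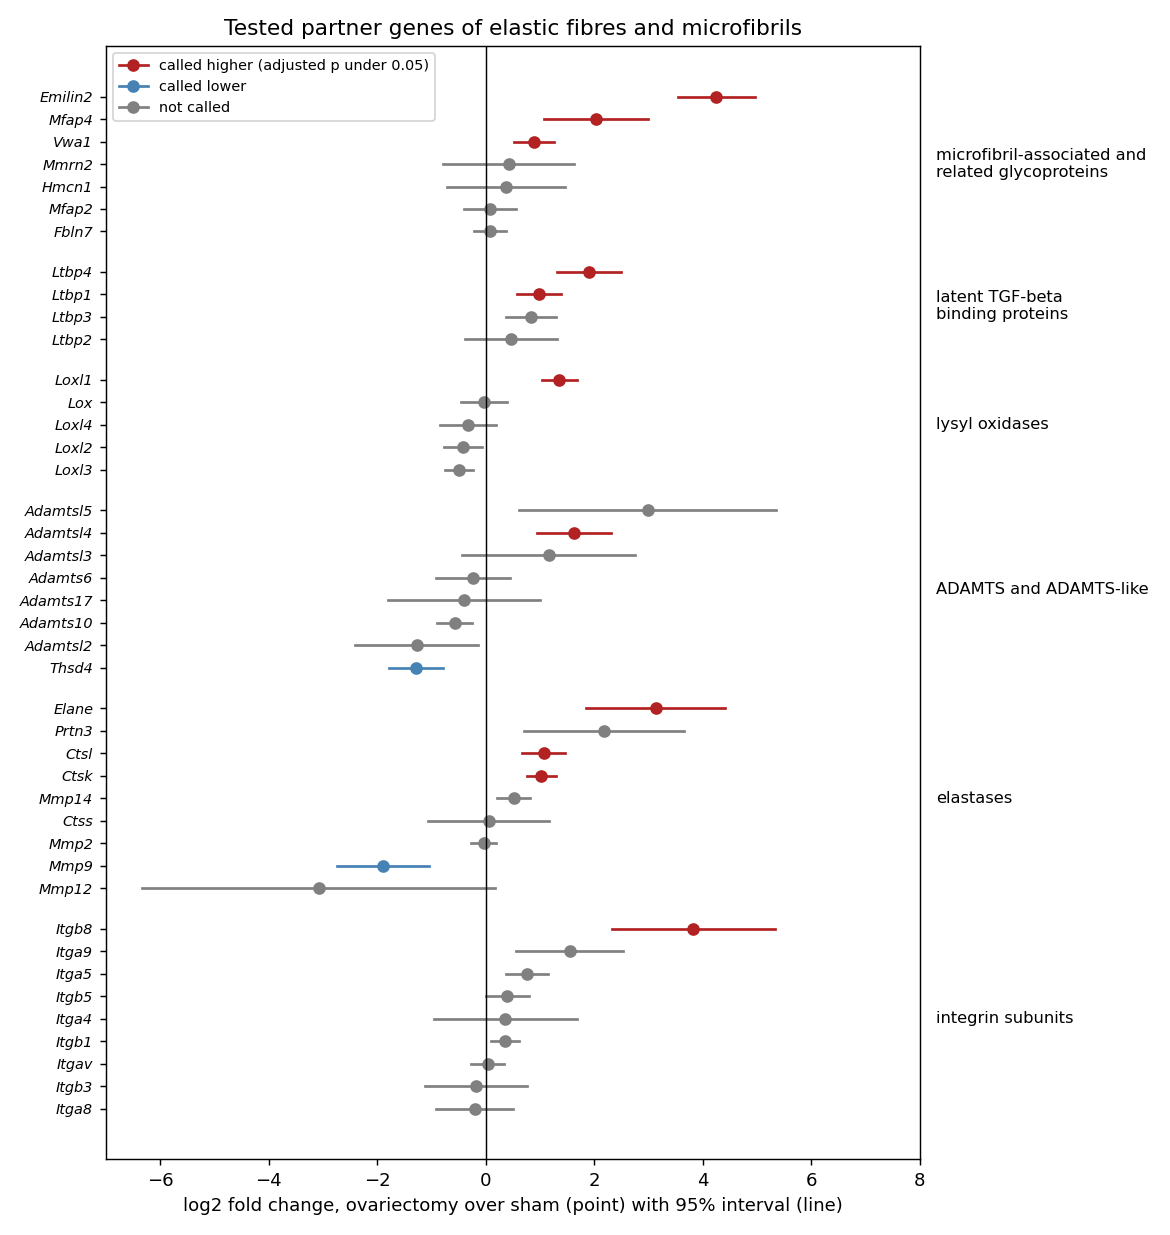
Log2 fold change of the 42 tested partner genes, ovariectomy over sham (horizontal axis, points), with 95% intervals from the edgeR fit (lines), grouped by role. Emilin2, Itgb8 and Elane have the largest fold changes among the 11 genes called higher (red), each of a size that moved by over 1.5 times when 1 sham library was left out, and Mmp9 and Thsd4 are the 2 called lower (blue).

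Markers of other cells that could be in the sort were counted in the same libraries, where CD45, Ter119 and Tie2, antigens of leukocytes, erythroid cells and endothelium, were among those stained for the sort. The shares of all genes tested that were called, 2.98% higher and 1.20% lower, hold beside each of these lists too. The marker lists were likewise chosen with earlier results known. Of 15 tendon and fibroblast markers, 7 were higher and 1 lower. Their summed level was 10683 and 12239 CPM in ovariectomy libraries and 8407 and 11400 CPM in sham libraries. Dcn, which was not called, gave 5536 and 6181 CPM of it in ovariectomy libraries and 4033 and 6380 CPM in sham libraries. Those higher were Dpt, Pi16, Cd34, Pdgfra, Ly6c1, Col3a1 and Ly6a. Fmod was lower, at 2368 and 2313 CPM in ovariectomy libraries and 3496 and 3666 CPM in sham libraries (edgeR adjusted p = 0.0117). The tendon genes Scx, Tnmd, Mkx and Thbs4 were not called, nor were Clec3b and Col14a1. Dpt (dermatopontin), a fibroblast matrix protein, was at 106 and 108 CPM in ovariectomy libraries and 11.5 and 21.2 CPM in sham libraries, and Ly6a at 126 and 118 CPM in ovariectomy libraries and 18.8 and 30.7 CPM in sham libraries. Of 14 smooth muscle and pericyte markers, cells that make elastic fibres in vessel walls, 3 were higher and 0 lower, with summed levels of 838 and 911 CPM in ovariectomy libraries and 590 and 641 CPM in sham libraries. Des (desmin) was at 14.0 and 15.0 CPM in ovariectomy libraries and 2.94 and 3.47 CPM in sham libraries. Of the summed levels, Rgs5, also called higher, gave 295 and 361 CPM in ovariectomy libraries and 5.66 and 46.4 CPM in sham libraries. Cspg4 was at 214 and 222 CPM in ovariectomy libraries and 284 and 266 CPM in sham libraries. For Smtn the values were 205 and 212 CPM in ovariectomy and 241 and 258 CPM in sham libraries. Neither Cspg4 nor Smtn was called. Fold changes were above 0 for 11 of the 14 and below 0 for 3.

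Of 14 endothelial markers, 1 (Ramp2, with 33.4% of its exon length shared with another gene) was higher and 0 lower, with summed levels of 180 and 218 CPM in ovariectomy libraries and 53.2 and 143 CPM in sham libraries, and Cdh5 and Emcn had 0 counts in sham 1. Of 11 tested leukocyte markers, 2 (Elane and Mpo) were higher and 0 lower, with Ptprc at a log2 fold change of -0.57 and overlapping groups (summed levels 170 and 268 CPM in ovariectomy and 91.0 and 72.2 CPM in sham libraries). Of 12 tested erythroid markers, 6 were higher and 0 lower (194 and 282 CPM in ovariectomy and 57.3 and 42.7 CPM in sham libraries). Car1 was at 51.3 and 87.1 CPM in ovariectomy and 0.134 and 0.712 CPM in sham libraries. Car2 was at 44.5 and 76.2 CPM in ovariectomy and 7.14 and 11.5 CPM in sham libraries. Rhag had 0 counts in both sham libraries and Klf1, Epor and Slc4a1 in sham 2. Slc4a1, Alas2 and the globin genes Hba-a1, Hba-a2, Hbb-bs and Hbb-bt were not called, and Alas2 had a log2 fold change of -0.40. Chondrocyte markers were lower in 12 of 14 cases and higher in 0, with 75412 and 67409 CPM in ovariectomy libraries and 127733 and 118389 CPM in sham libraries. Col2a1, called lower, gave 40259 and 36879 CPM of it in ovariectomy libraries and 73169 and 65394 CPM in sham libraries. Of 12 osteoblast markers, 5 were lower and 1 higher (86840 and 78490 CPM in ovariectomy and 95450 and 129887 CPM in sham libraries). Most of that sum was Col1a1, which was not called (edgeR adjusted p = 0.258). Col1a1 was at 61075 and 57192 CPM in ovariectomy libraries and 62492 and 88749 CPM in sham libraries. The part of these cells in the fold changes of the 10 genes was not tested.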

How the data were processed

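Bulk RNA-seq libraries of sorted mouse skeletal stem cells, 2 from ovariectomized and 2 from sham-operated mice, were compared. The authors deposited 1 table of raw read counts per gene. Trim Galore 0.6.6, featureCounts 2.0.1 and the build GRCm38 (mm10) were used, per the submitters' processing notes. For the aligner, annotation release, strand setting and filters: not given in the sources used here.

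Symbols, positions and exon lengths came from GENCODE M21 (GRCm38), which matched 55227 of 55487 IDs. Genes were kept by filterByExpr, scaled by TMM and tested two-sided with edgeR 4.0.16 (R 4.3.3; quasi-likelihood F test, group alone), with Benjamini-Hochberg adjustment over 17120 genes. The SE is the size of the log2 fold change divided by the square root of F. The fit had 2 residual and 5.29 prior degrees of freedom. CPM per kilobase divides TMM-scaled CPM by the summed exon length, which isoform use and read coverage can distort. Alternatives used DESeq2 1.42.0, limma 3.58.1, mgcv 1.9.3 (GC and length offset), other scalings and filters, a replicate block and leaving out each library. The 10 genes, the partner and marker lists were chosen with earlier results of these data known. All 10 genes, called partner genes and at most 2 markers per list by smallest p are named. Sort antigens, Gm9913, Mfap2, Fbln7 and genes at 0 counts were added. So were markers that give much of a summed level or that complete a list. Adamtsl6 was matched as Thsd4 by a RefSeq synonym. Promoters are from RefSeq.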

Additional observations from a re-analysis of the deposited data

How the results depend on the processing

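All 10 genes kept the sign of their log2 fold change in all 13 alternatives. With all 4 libraries, Mfap5, Fbln5, Fbln1 and Emilin1 stayed past the threshold in all 9 alternatives, and Fbln2 passed in 6. Library totals moved the median of all genes by 0.11 log2 units and the GC and length offset by -0.12. The share of higher among all calls was 71.2%, with 82.2% for library totals and 55.5% for the offset.

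Counts that moved were as follows. With no filter, 1112 genes were higher and 544 lower. A mean of at least 5 CPM gave 406 lower, limma-voom 313, the offset 355 and the replicate block 329. The DESeq2 test gave 930 higher and 486 lower, and 2 of the 10 genes lower. In each of these 6 alternatives 4 partner genes were lower. Leaving out 1 library gave 0 to 1277 genes higher and 0 to 558 lower, 0 to 5 of the 10 genes higher and 0 to 1 lower, 8 of the 10 above 0 each time, a median log2 fold change of the 10 of 0.90 to 1.27, and 0 to 17 partner genes higher and 0 to 5 lower. The counts of 0 are those of edgeR without ovariectomy 1 or ovariectomy 2, where 1788 and 1618 genes had an unadjusted p under 0.05. The cause was not tested.

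Libraries share replicate numbers 1 and 2. The differences within the sham pair and the ovariectomy pair had a correlation of 0.0043 across genes. A correlation over all genes cannot show whether libraries of the same number were handled as pairs. With the replicate block, 745 genes were higher and 329 lower, and 4 of the 10 genes were higher, with Fbln2 past the threshold (edgeR adjusted p = 0.000387). Eln and Fbn2 rest on 68 to 210 counts per library, and depth as their limit was not tested.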
